A study of Homo sapiens with 6 samples.

Results

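Integrins are cell surface receptors built from an alpha and a beta chain, and focal adhesions are the protein plaques that join them to the actin cytoskeleton. The members described here are 45 genes: 20 integrin chains, the ligand gene FN1 and 24 genes of the plaque. They were chosen by name, with earlier results of these data known. Their values are those of every array probe set whose only gene symbol is one of these names. Of the 45 genes, 42 had such a probe set, 139 probe sets in all, among 19775 genes with a probe set of their own on the array.

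Expression was measured on 6 single-colour Affymetrix arrays. The cells were MDA-MB-231, a long established breast cancer line of basal, mesenchymal-like character. One group of 3 arrays came from cells that carried a lentivirus for eGFP alone and is called the GFP control. The other 3 arrays are labelled GATA3 and came from cells given a lentivirus for GATA3 and eGFP. GATA3 is a transcription factor of luminal mammary cells. Both groups were thus transduced, sorted for GFP, and grown in the same medium, with RNA taken 2 days after seeding. The promoter that drives GATA3 is not given in the sources used here, and the labels name no clone. The labels do not say that the 3 arrays of a group came from separate cultures, so the p-values measure the spread between arrays, which may be technical. The deposited GCRMA values were read as log2, where 1 unit is a 2-fold difference, and a value of 4 was taken as the detection level. A level of 1 probe set cannot be set against that of another, so only changes are compared between genes.

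The reading of GATA3 itself went against the label. Its brightest probe set (209604_s_at) read 9.37, 9.35 and 9.45 in the GFP control and 7.93, 7.94 and 7.32 in the arrays labelled GATA3, 3.16-fold lower (limma, adjusted p 0.00238). A second probe set of GATA3 (209602_s_at) was lower too, with means of 4.73 and 3.24, the latter under the detection level (limma, adjusted p 0.00444). Its remaining probe set (209603_at) was under 4 on every array. Whether these probes read the introduced sequence was not tested. Each direction that follows rests on the labels. Array GATA3 replicate 3 stood apart: it correlated with the other arrays of its group at 0.984 and 0.986, against 0.995 or more within all other pairs of a group, and it alone has a second raw-file date. Markers of the line were bright, with VIM at 15.03 and CD44 at 13.69 in the GFP control and 14.72 and 13.62 in the arrays labelled GATA3. Of the 6 such markers measured, 2 were lower at an adjusted p under 0.05 (VIM and MSN, 33.3%) and 1 higher (ANXA1, 16.7%). Among all measured genes, 14.5% were lower and 14.8% higher. None of the 10 leukocyte and 5 platelet markers with a probe set was over 4 on any array, nor were 6 of 7 endothelial markers. Of 9 fibroblast markers, 6 were never over 4, among them COL1A2, COL3A1 and DCN. Of the 3 that were measured, PDGFRB and COL1A1 did not pass, and LUM rose from 3.25 to 10.96. The summed log2 level of the list was 29.23 to 29.94 in the GFP control and 37.56 to 39.52 in the arrays labelled GATA3, and without LUM it was 26.21 to 26.43 and 26.61 to 28.56. The part of this in the changes below was not tested.

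In a resting cell an integrin is held in a bent, closed form. Talins (TLN1, TLN2) and kindlins (FERMT1, FERMT2) bind the tail of the beta chain and open the receptor, which then grips collagen, laminin or fibronectin outside the cell. Inside, the ILK, PINCH and parvin complex, the kinases FAK and SRC with their scaffolds, and linkers such as vinculin, zyxin and alpha-actinin build the plaque and couple it to actin. The makeup of the chains sets which matrix a cell can hold, and mammary epithelium is known for its collagen receptor α2β1 and laminin receptors α3β1 and α6β4.

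The integrin and adhesion genes changed in both directions. Of the 45 members, 29 had a probe set over 4 on at least 3 of the 6 arrays and are called measured. Of these, 9 were higher in the arrays labelled GATA3 (31.0%, against 14.8% of all 10814 genes measured) at an adjusted p under 0.05, and 9 were lower (31.0%, against 14.5%). The other 11 did not pass that threshold. Since the members were chosen with earlier results of these data known, the shares in this paragraph are descriptive alone. A change of at least 2-fold past the threshold was seen in 5 members, ITGA2, ITGB8, ENAH, ITGA5 and TNS3 (17.2%, against 7.28% of all genes). The groups of arrays did not overlap in 20 members (69.0%, against 49.5%). The median change was 0.03 among members and -0.02 among all genes, and the median size of change, sign aside, was 0.48 and 0.21. Without GATA3 replicate 3, 9 members were higher and 10 lower. In that fit, 3581 of all 23785 measured probe sets were higher and 3752 lower, against 2698 and 3329 with all 6 arrays. By probe set and with all 6 arrays, 16 of 65 measured for the members were higher and 20 lower. That is 55.4% in all against 25.3% of all measured probe sets. ITGB8 is in these counts although it was measured only through the arrays labelled GATA3 and so had to differ. Without it and the other genes measured through 1 group alone, 153 in all, 8 of 28 members were higher (28.6%, against 14.1% of the remaining 10661 genes) and 9 lower (32.1%, against 14.3%). Of those 28, 4 had changed at least 2-fold (14.3%, against 6.11%), and the groups did not overlap in 19 (67.9%, against 48.8%).

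**Figure D1:**
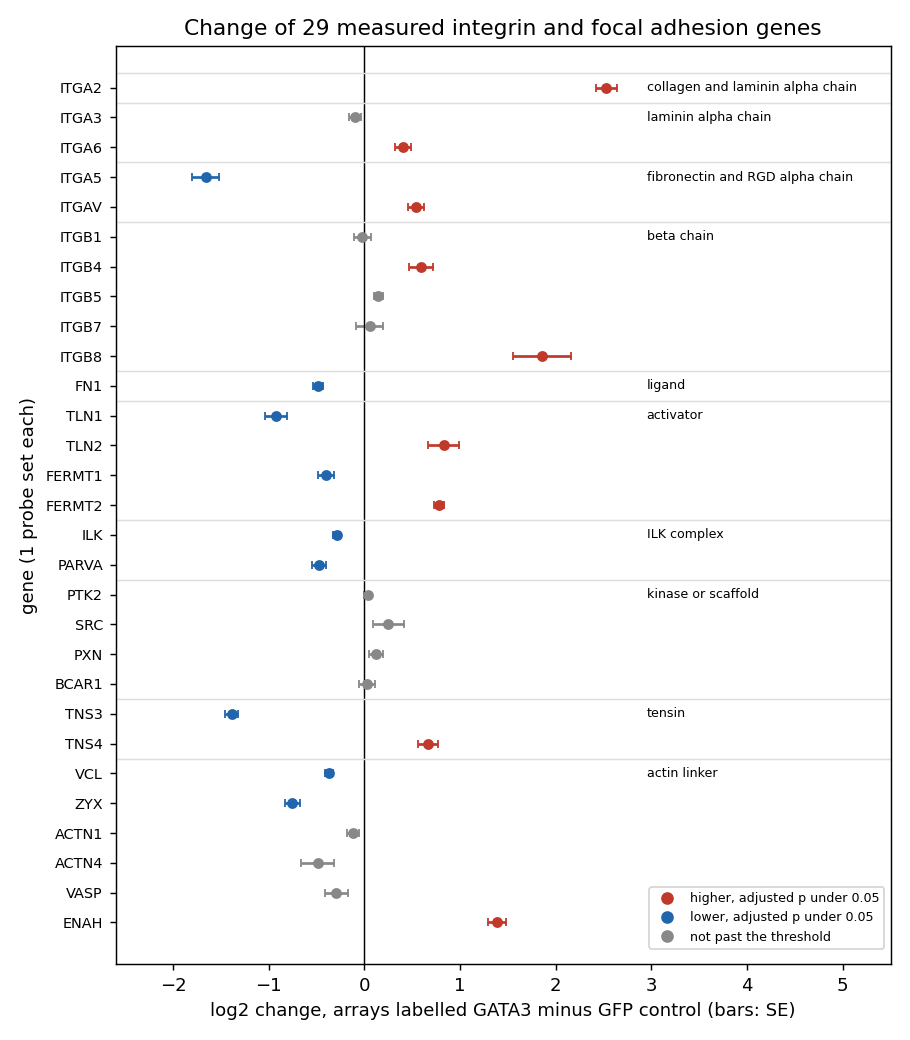
Log2 change of each of the 29 measured members (arrays labelled GATA3 minus GFP control, 3 arrays each) with the standard error of the fit, ordered by role; red and blue mark an adjusted p under 0.05. The changes run from -1.66 for ITGA5 to 2.53 for ITGA2, and the 4 kinases and scaffolds lie between 0.03 and 0.25.

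**Figure D2:**
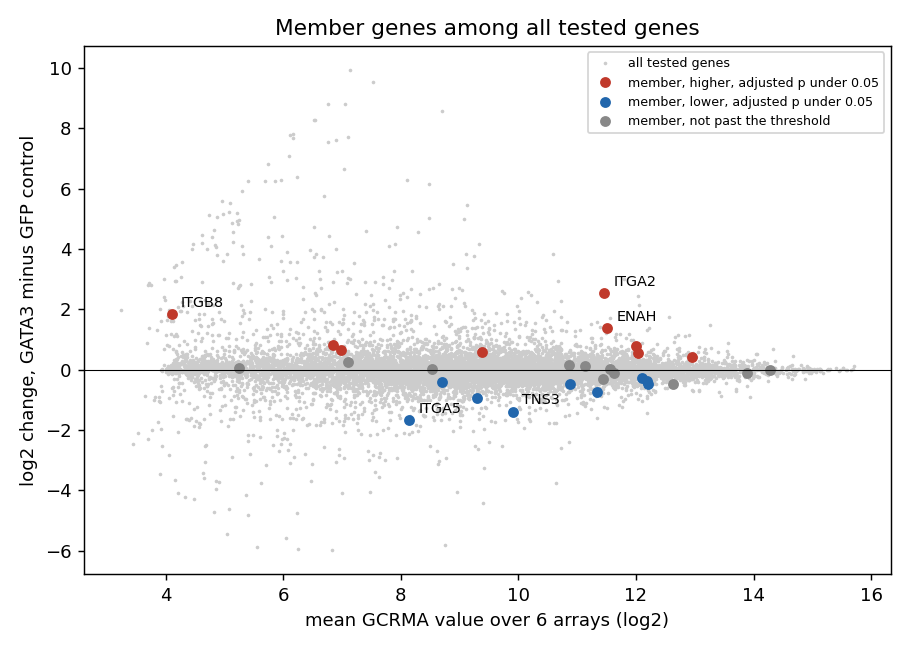
Log2 change against the mean GCRMA value over the 6 arrays for all 10814 measured genes (grey) and the members (coloured). The 5 labelled members are those at least 2-fold changed and past the threshold, and 199 genes changed by more than any member.

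The stretches before the start sites of 4 of the 5 genes with a change of at least 2-fold are shown, since each has a single start site in the RefSeq promoter table (GRCh38.p14); TNS3 has several and is not printed. Each line gives the 250 bases before the start, 5′ to 3′ on the gene's strand, in lower case with the GC box, GGGCGG or its reverse complement CCGCCC, in capitals. ITGA2 lies on chr5:52989102-52989351 (plus strand), ITGB8 on chr7:20330650-20330899 (plus strand), ENAH on chr1:225653124-225653373 (minus strand) and ITGA5 on chr12:54419267-54419516 (minus strand).
ITGA2: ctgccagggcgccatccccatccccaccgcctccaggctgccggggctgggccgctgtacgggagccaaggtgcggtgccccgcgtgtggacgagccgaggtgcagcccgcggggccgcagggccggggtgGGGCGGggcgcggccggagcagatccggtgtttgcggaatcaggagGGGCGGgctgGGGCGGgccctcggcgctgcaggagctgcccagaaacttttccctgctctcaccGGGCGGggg
ITGB8: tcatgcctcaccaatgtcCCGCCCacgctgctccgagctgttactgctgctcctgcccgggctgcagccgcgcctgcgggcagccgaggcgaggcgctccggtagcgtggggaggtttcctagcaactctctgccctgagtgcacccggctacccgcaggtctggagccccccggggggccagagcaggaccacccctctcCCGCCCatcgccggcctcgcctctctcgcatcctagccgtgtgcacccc
ENAH: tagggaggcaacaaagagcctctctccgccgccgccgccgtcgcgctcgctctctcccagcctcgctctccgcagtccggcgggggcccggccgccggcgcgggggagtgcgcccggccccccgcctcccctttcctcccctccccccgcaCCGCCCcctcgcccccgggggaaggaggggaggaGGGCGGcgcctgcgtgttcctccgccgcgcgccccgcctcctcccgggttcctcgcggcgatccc
ITGA5: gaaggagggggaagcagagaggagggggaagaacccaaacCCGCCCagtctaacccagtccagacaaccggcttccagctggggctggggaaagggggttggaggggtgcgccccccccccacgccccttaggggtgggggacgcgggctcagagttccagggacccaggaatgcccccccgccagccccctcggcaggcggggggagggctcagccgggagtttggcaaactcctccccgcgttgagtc

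These stretches are rich in G and C, at 76.4% for ITGA2, 71.2% for ITGB8, 80.0% for ENAH and 70.0% for ITGA5, against a median of 58.0% over all 35116 windows of the table and 68.0% over the 57 windows of the 33 members it lists. ITGA2 holds 4 GC boxes, which begin 119, 73, 63 and 9 bases before the start. ITGB8 and ENAH hold 2 each, and ITGA5 holds 1, 210 bases before the start. A GC box was found in 42.6% of all windows and in 31 of the 57 member windows. On both strands, the GATA motif (AGATAA or AGATAG or TGATAA or TGATAG) was in none of the 4 printed stretches, in 22.3% of all windows and in 11 of the 57 member windows. Among these is 1 of the 3 windows of TNS3, which holds TGATAA. The AP-1 motif TGANTCA (6.57% of all windows), the CArG box of serum response factor (1.16%) and the TATA box TATAAA (10.7%) were in none of the 4 either, and no motif overlapped another in them. Such matches are letters in these windows alone.

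Of the 20 integrin chains, 10 were measured: 5 were higher, 1 was lower and 4 did not pass. Among all measured genes, 14.8% were higher and 14.5% lower. Without ITGB8, 4 of 9 chains were higher, where 14.1% of the genes measured in both groups were. ITGA2, the alpha chain of the collagen receptor α2β1, rose most. Its brighter probe set (227314_at) read 10.00, 10.24 and 10.36 in the GFP control and 12.63, 12.70 and 12.85 in the arrays labelled GATA3. The lowest of the latter lay more than 2 units above the highest control array. The means were 10.20 ± 0.19 and 12.73 ± 0.11 (SD, n = 3, as for each ± that follows), a log2 change of 2.53 (SE 0.11, 5.77-fold, adjusted p 8.60e-05). The other probe set (205032_at) read 9.17, 9.36 and 9.53 against 11.82, 11.84 and 12.02, a change of 2.54 (adjusted p 8.35e-05). The other collagen receptor chains, ITGA1, ITGA10 and ITGA11, were not measured, and none of their 7 probe sets was over 2.85 on any array.

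ITGA5, the alpha chain of the classical fibronectin receptor α5β1, went the other way. It read 8.90, 9.00 and 9.03 in the GFP control and 7.22, 7.60 and 7.13 in the arrays labelled GATA3, so that the groups lay over 1 unit apart. The change was -1.66 (SE 0.14, 3.16-fold lower, adjusted p 0.000862), and -1.80 to -1.57 when any 1 array was left out. FN1, which encodes fibronectin, the ligand of that receptor, was lower as well but by less. Its brightest probe set (211719_x_at) read 12.46, 12.49 and 12.36 against 11.91, 11.93 and 12.03, a change of -0.48 (SE 0.05, 1.40-fold lower, adjusted p 0.00243). Of its 4 other measured probe sets, 3 fell by 0.47 to 0.49 on the log2 scale. The remaining one (214701_s_at) had a change of -0.79 that did not pass (adjusted p 0.100). There GFP control replicate 3 read 7.50 and the other 2 control arrays 8.38 and 8.56.

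ITGAV, the alpha chain shared by receptors for vitronectin and for latent TGF-beta, was higher. It read 11.66, 11.75 and 11.88 in the GFP control and 12.36, 12.38 and 12.16 in the arrays labelled GATA3, with no overlap. The change was 0.54 (SE 0.08, 1.45-fold, adjusted p 0.00812). The beta chains that pair with it differed. ITGB8, whose product with αv activates latent TGF-beta, read 3.10, 2.82 and 3.62 in the GFP control, all under the detection level, and 5.29, 5.33 and 4.49 in the arrays labelled GATA3. ITGB8 was measured only through the arrays labelled GATA3 and so had to differ. It was at least 2.05-fold higher (adjusted p 0.00933), counted from the detection level. That call was just lost when all probe sets were tested with no filter on low values (adjusted p 0.0502). It was also lost with the replicate number as a block (adjusted p 0.0516). Its 4 other probe sets stayed under 4 on every array. ITGB5, the chain of the vitronectin receptor αvβ5, had a change of 0.15 (95% confidence interval 0.03 to 0.27, adjusted p 0.0799), which did not pass. By the same probe set it passed after quantile normalization (0.18, adjusted p 0.0359) and cyclic loess (0.19, adjusted p 0.0277). It also passed with array weights by REML (0.14, adjusted p 0.0158). Those weights did not converge, and were 11.84 for GATA3 replicate 2 and 0.12 for GATA3 replicate 3. The other measured probe sets of ITGB5 all differed in sign from this one and did not pass either. Their changes were -0.07 (201124_at), -0.03 (214020_x_at) and, for the dimmest, -0.42 (214021_x_at, adjusted p 0.0845). With the mean of all its measured probe sets, ITGB5 had a change of -0.095 (adjusted p 0.371). ITGB3 was not measured: 1 of its 7 probe sets read 3.84 on 5 arrays and 4.48 on GATA3 replicate 3, and the others were under 2.5. ITGB6, the epithelial partner of αv, had no probe set with a single symbol and is not analysed here.

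Both chains of α6β4, the laminin receptor of hemidesmosomes, were higher by a small amount. ITGA6 (201656_at) read 12.63, 12.75 and 12.88 in the GFP control and 13.22, 13.21 and 13.04 in the arrays labelled GATA3, a change of 0.41 (SE 0.08, 1.33-fold, adjusted p 0.0183). Its other probe set (215177_s_at) had a change of 0.64 (adjusted p 0.00390). ITGB4 (204990_s_at) read 9.14, 9.21 and 8.93 against 9.52, 9.62 and 9.90, a change of 0.59 (SE 0.13, 1.50-fold, adjusted p 0.0231), and 0.41 by its other measured probe set (adjusted p 0.0336). Neither gene overlapped between the groups, nor did 49.5% of all measured genes, and these calls were fragile. That of ITGA6 was lost without GATA3 replicate 1 (adjusted p 0.0606), GATA3 replicate 2 (0.0671), GFP control replicate 1 (0.0513) or GFP control replicate 2 (0.0708), and that of ITGB4 without GATA3 replicate 2 (0.0629) or GFP control replicates 1 (0.0681), 2 (0.0540) or 3 (0.0761). With no filter on low values the adjusted p-values were 0.0794 and 0.0899, and with the replicate number as a block 0.0728 and 0.0841. ITGA3, the chain of the laminin receptor α3β1, read 11.68 ± 0.058 and 11.58 ± 0.099, a change of -0.10 (95% confidence interval -0.25 to 0.06) that did not pass.

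ITGB1, the beta chain shared by α2, α3, α5 and α6, did not pass. Its brightest probe set (211945_s_at) read 14.19, 14.30 and 14.40 in the GFP control and 14.19, 14.22 and 14.43 in the arrays labelled GATA3. The groups overlapped, with a change of -0.02 (95% confidence interval -0.23 to 0.19, adjusted p 0.887). Its 3 other measured probe sets had changes of -0.15 to -0.05 and none passed. The dimmest of these (216178_x_at) repeated 1 value on 4 arrays, which may be background. ITGB7, a beta chain known from lymphocytes, was just above the detection level at 5.23 ± 0.063 and 5.28 ± 0.26 (change 0.06, adjusted p 0.792). ITGB2, the leukocyte beta chain, and ITGA4, ITGA7, ITGA8 and ITGA9 had no probe set over 2.28 on any array. ITGAE, the alpha chain that pairs with β7 and binds E-cadherin, is no member; of the 6 remaining integrin alpha chains it alone was measured, at 12.10 and 12.28 (change 0.18, adjusted p 0.127).

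**Figure D3:**
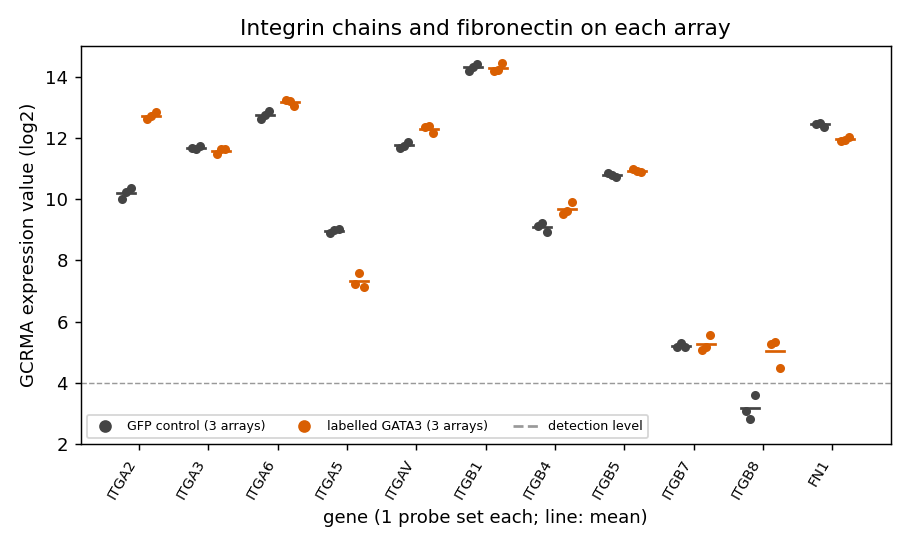
GCRMA value (log2) of the 10 measured integrin chains and FN1 on each of the 6 arrays, 1 probe set per gene, with the mean as a line and the detection level of 4 dashed. ITGA2 lies higher and ITGA5 lower in all 3 arrays labelled GATA3, the ITGB1 groups overlap, and ITGB8 crosses the detection level.

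The talins and kindlins, which switch integrins on, changed in opposite directions within each pair. TLN1, the talin of most tissues, read 9.69, 9.61 and 9.96 in the GFP control and 8.86, 8.92 and 8.70 in the arrays labelled GATA3, a change of -0.93 (SE 0.11, 1.90-fold lower, adjusted p 0.00339). Its other measured probe set fell by 0.43 in log2 (adjusted p 0.0346). TLN2, its close relative best known from muscle and brain, read 6.63, 6.49 and 6.16 against 7.28, 7.06 and 7.43, a change of 0.83 (SE 0.16, 1.78-fold, adjusted p 0.0162). Its call was lost without GATA3 replicate 1 (adjusted p 0.0524) or GFP control replicate 2 (0.0558) and with no filter on low values (0.0656). With the replicate number as a block it was lost too (adjusted p 0.0632). Neither talin overlapped between the groups, nor did 49.5% of all measured genes.

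FERMT2, the kindlin of mesenchymal cells, rose from 11.66, 11.61 and 11.59 to 12.40, 12.31 and 12.48, a change of 0.78 (SE 0.05, 1.71-fold, adjusted p 0.000402). Its 2 other probe sets, both measured, had changes of 0.72 and 0.71 and passed. FERMT1, the epithelial kindlin lost in Kindler syndrome, read 8.89, 8.83 and 8.98 in the GFP control and 8.47, 8.39 and 8.63 in the arrays labelled GATA3, a change of -0.40 (SE 0.09, 1.32-fold lower, adjusted p 0.0227). A second probe set (60474_at) fell by 0.52 in log2 (adjusted p 0.0135), and the remaining, dimmer one had a change of -0.26 that did not pass. The fall of FERMT1 passed in only 1 of the 6 fits with an array left out, that without GATA3 replicate 3 (adjusted p 0.00888). Without GATA3 replicates 1 and 2 it had adjusted p-values of 0.0665 and 0.0694, and without GFP control replicates 1, 2 and 3 of 0.0732, 0.0578 and 0.0845. Its change was -0.34 after quantile normalization (adjusted p 0.0753) and -0.31 after cyclic loess (adjusted p 0.107). With no filter on low values the call was lost too (adjusted p 0.0622).

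The complex of ILK with parvin and PINCH proteins, which sits on the beta chain and binds actin, was lower in its measured members. ILK, the integrin-linked pseudokinase at its centre, read 12.29, 12.24 and 12.21 in the GFP control and 11.92, 11.98 and 11.98 in the arrays labelled GATA3. The groups did not overlap, yet the change was only -0.29 (SE 0.04, 1.22-fold lower, adjusted p 0.00458). PARVA, which encodes alpha-parvin, read 11.09, 11.12 and 11.12 against 10.55, 10.56 and 10.79 by its brightest probe set (217890_s_at), a change of -0.48 (SE 0.07, 1.39-fold lower, adjusted p 0.00772). Of the 5 other measured probe sets of PARVA, 4 passed, with changes of -0.68 to -0.44, and 1 did not (-0.22, adjusted p 0.0719). PARVB, the beta-parvin gene, was under 4 by all 6 of its probe sets. The PINCH gene LIMS1 had 3 probe sets of its own, none over 2.27, and 2 more that carry several symbols were not used.

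The kinases and scaffolds that carry the signal did not pass by the probe sets that represent them. PTK2, which encodes FAK, read 11.52, 11.57 and 11.56 in the GFP control and 11.59, 11.56 and 11.59 in the arrays labelled GATA3. Those ranges overlap, and the change of 0.03 had a 95% confidence interval of -0.05 to 0.12 (adjusted p 0.478). The 2 other measured probe sets of PTK2 had changes of -0.03 and -0.39 and did not pass. SRC, the kinase that FAK recruits, had a change of 0.25 (95% confidence interval -0.15 to 0.65, adjusted p 0.295). Both its measured probe sets repeated 1 value on 3 or 4 arrays, which may be background. A bright probe set of ACTN1 (211160_x_at) also repeated 1 value, 12.28, on 3 arrays, so a repeat alone does not mark background. BCAR1, which encodes the scaffold p130Cas, read 8.52 ± 0.12 and 8.55 ± 0.079 (change 0.03, 95% confidence interval -0.19 to 0.25). PTK2B, the relative of FAK also called PYK2, was under 4 on every array.

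PXN, which encodes the scaffold paxillin, gave a different answer by each of its probe sets. The brighter (201087_at) read 11.19, 10.94 and 11.08 in the GFP control and 11.22, 11.19 and 11.18 in the arrays labelled GATA3, with a change of 0.12 (95% confidence interval -0.05 to 0.30, adjusted p 0.252). The dimmer (211823_s_at) read 9.76, 9.49 and 9.63 against 9.15, 9.15 and 8.75, a fall of 0.61 on the log2 scale (SE 0.14, adjusted p 0.0274). The change of this gene is therefore uncertain. Of the 18 members with more than 1 measured probe set, 6 mixed probe sets that passed with ones that did not (ENAH, FERMT1, FN1, PARVA, PXN and TNS4), and 0 had probe sets that passed in opposite directions.

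**Figure D4:**
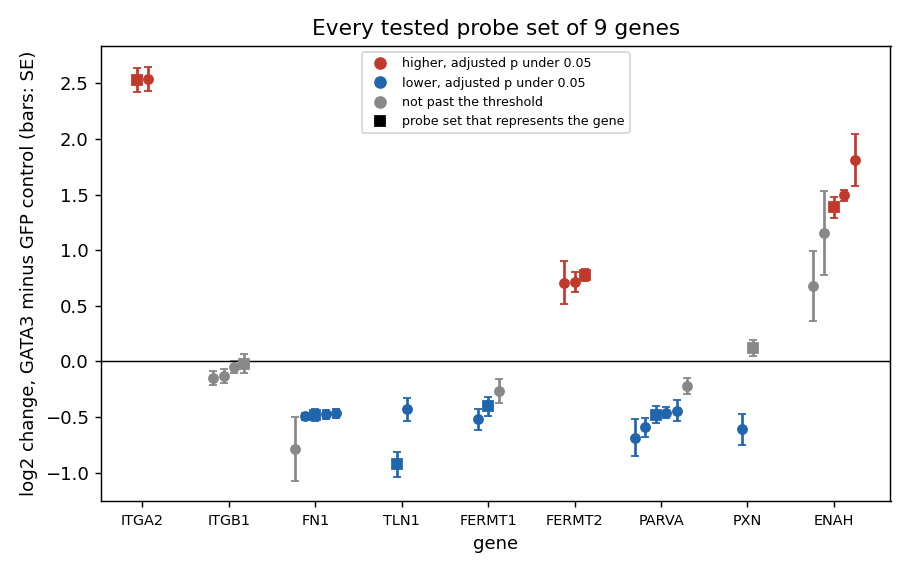
Log2 change (arrays labelled GATA3 minus GFP control) with its standard error for every measured probe set of 9 members; squares are the probe sets that represent a gene. The 2 probe sets of ITGA2 and the 3 of FERMT2 lie close together, while the 2 of PXN lie on either side of 0 and the 5 of ENAH spread from 0.68 to 1.81.

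The tensins, which cap actin filaments and bind integrin tails, moved apart. TNS3 read 10.67, 10.53 and 10.61 in the GFP control and 9.31, 9.19 and 9.14 in the arrays labelled GATA3. Each array of the latter lay over 1 unit below every control array, and the change was -1.39 (SE 0.07, 2.61-fold lower, adjusted p 0.000127). TNS4, also called cten, a short tensin of epithelia without the actin-binding part, read 6.52, 6.81 and 6.64 against 7.27, 7.25 and 7.45. Its change was 0.66 (SE 0.11, 1.59-fold, adjusted p 0.00913). Its other measured probe set (222265_at) had a change of 0.42 that did not pass (adjusted p 0.434), with 5 arrays at 4.27 to 4.33 and GATA3 replicate 3 at 5.61. With the mean of both, the gene did not pass (0.54, adjusted p 0.103). TNS1 was under 4 by all 5 of its probe sets.

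Of the 8 actin linkers, 6 were measured, of which ENAH was higher, VCL and ZYX were lower and 3 did not pass. Among all measured genes, 14.8% were higher and 14.5% lower. ENAH encodes Mena, which lengthens actin filaments at the tips of protrusions and in adhesions. Its brightest probe set (222433_at) read 10.81, 10.80 and 10.86 in the GFP control and 12.29, 12.32 and 12.00 in the arrays labelled GATA3. The control arrays agreed within 0.1 unit, and the change was 1.39 (SE 0.09, 2.61-fold, adjusted p 0.000428). A second bright probe set (217820_s_at) read 10.03, 10.08 and 10.14 against 11.62, 11.56 and 11.55, a change of 1.49 (adjusted p 2.89e-05). The 3 dimmer ones had changes of 1.81 (adjusted p 0.00420), 1.15 (0.0782) and 0.68 (0.174). Whether particular splice forms of Mena differ was not analysed here. VASP, the closest relative of Mena in the list, did not pass: it read 11.58, 11.41 and 11.75 against 11.22, 11.17 and 11.48, a change of -0.29 (95% confidence interval -0.59 to 0.003, adjusted p 0.132). With array weights by REML, which did not converge, it was lower (-0.39, adjusted p 0.00740), and with gene-by-gene weights too (adjusted p 0.0211).

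ZYX and VCL were lower. ZYX, which encodes zyxin, a LIM protein of mature and stretched adhesions, read 11.72, 11.80 and 11.63 in the GFP control and 10.87, 11.10 and 10.92 in the arrays labelled GATA3, a change of -0.76 (SE 0.08, 1.69-fold lower, adjusted p 0.00187). Its other probe set fell by 0.77 in log2 (adjusted p 0.000189). VCL, which encodes vinculin, the link between talin and actin under tension, read 12.31, 12.40 and 12.40 against 11.96, 12.03 and 12.02. Its change was small, -0.37 (SE 0.04, 1.29-fold lower, adjusted p 0.00244), but larger than the spread between arrays. The alpha-actinins, which bundle actin, did not pass. ACTN1 had a change of -0.12 (adjusted p 0.210). It passed as lower with array weights by REML, which did not converge (adjusted p 0.0210), and with gene-by-gene weights (adjusted p 0.0441). ACTN4 read 12.90, 12.94 and 12.79 against 12.54, 12.63 and 11.99, a change of -0.49 (adjusted p 0.0984). The low reading is that of GATA3 replicate 3, and without that array the change was -0.29 and passed (adjusted p 0.0273). It also passed with each array centred on its 75th percentile (adjusted p 0.0406), with the REML array weights (adjusted p 0.0255) and with gene-by-gene weights (adjusted p 0.0399). FLNA and FLNC, the filamin genes, had no probe set under their symbols in the annotation and are not analysed here.

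**Figure D5:**
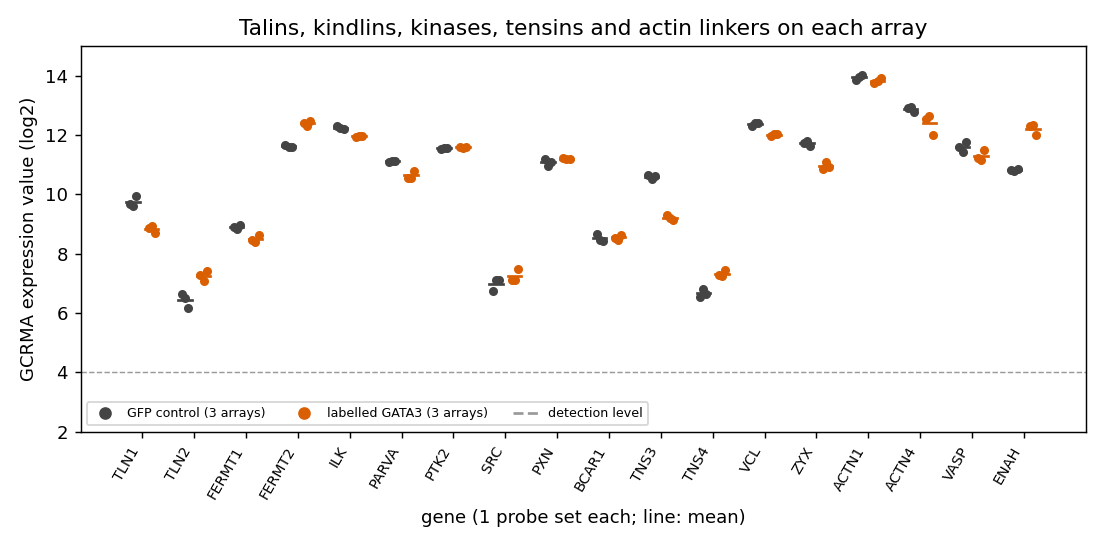
GCRMA value (log2) of the 18 measured intracellular members on each of the 6 arrays, 1 probe set per gene, with the mean as a line. TLN1, TNS3 and ZYX lie lower and TLN2, FERMT2, TNS4 and ENAH higher in all 3 arrays labelled GATA3, and the PTK2 and BCAR1 groups overlap.

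Related genes outside the 45 also went both ways. The counts that follow are to be read against 14.8% higher and 14.5% lower among all measured genes. These lists too were chosen with earlier results of these data known. Among other integrin ligands, 22 of 34 genes were measured, 6 higher (27.3%) and 5 lower (22.7%), with a median change of 0.03. Tenascin C (TNC) had a change of -2.94 (7.67-fold lower, adjusted p 0.000349), the latent TGF-beta binding protein gene LTBP1 of -2.14 (4.41-fold lower, adjusted p 0.000128) and TGFBI of -1.75 (adjusted p 0.000109). LAMA5, a laminin alpha chain of epithelial basement membranes, rose from 9.57 to 10.90, a change of 1.33 (adjusted p 0.00446).

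Among 36 further adaptors, kinases and exchange factors, 27 were measured, 5 higher (18.5%) and 6 lower (22.2%), with a median change of -0.12. LPXN, which encodes leupaxin, a paxillin relative of blood cells and some cancers, fell from 7.63 to 4.75, a change of -2.89 (7.41-fold lower, adjusted p 0.000615). NEDD9, a relative of BCAR1, rose by 1.29 on the log2 scale (adjusted p 0.00470), whereas BCAR1 itself did not pass. APBB1IP, which encodes RIAM, a protein that brings talin to integrins, fell by 1.13 in log2 (adjusted p 0.00149), and DAB2, an endocytic adaptor for integrins, rose by 1.09 (adjusted p 0.000223).

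Of 35 further actin-linked and LIM proteins, 28 were measured, 9 higher (32.1%) and 4 lower (14.3%), with a median change of -0.02. The LIM gene FHL2 had a change of 1.16 (adjusted p 0.000202) and PDLIM1 of 0.98 (adjusted p 3.54e-05). EVL, which belongs to the family of Mena and VASP, fell by 0.88 in log2 (adjusted p 0.00426), and PDLIM7 fell by 0.85 on that scale (adjusted p 0.00210). Of 9 hemidesmosome genes, 5 were measured, LAMB3 and CD151 among them, which other lists here count too, and 2 were higher. These 2 were KRT14 and DST. The basal keratin gene KRT14 was at least 7.25-fold higher from under the detection level (adjusted p 6.17e-05) and thus measured only through the arrays labelled GATA3. DST encodes the plakin BPAG1 (change 0.32, adjusted p 0.00472). Without KRT14, 1 of 4 was higher (25.0%, against 14.1% of the genes measured in both groups). Of 13 membrane partners of integrins, all were measured, 1 higher (7.69%) and 4 lower (30.8%). The tetraspanin genes CD82 and CD9 went opposite ways, with changes of -1.26 (adjusted p 0.00979) and 0.58 (adjusted p 0.0187), and CD47 fell by 0.68 in log2 (adjusted p 0.00287), as did BSG by 0.51 (adjusted p 0.00405).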

How the data were processed

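MDA-MB-231 RNA was hybridised to 6 arrays, 3 per group, as the labels group them. The deposited values are log2 expression values per probe set, for which the notes of the submitters name GCRMA; the version is not given in the sources used here, and the log2 scale is read from their range. GCRMA leaves unexpressed probe sets at a floor, here 2.17, or at a repeated value of their own. Values were used as deposited. Of 54675 probe sets, 62 controls were left out, and those over 4 in at least 3 of the 6 arrays were tested (23785), with limma 3.58.1 in R 4.3.3 (lmFit, eBayes with an intensity trend, no covariates) and Benjamini-Hochberg adjustment over all tested probe sets at 0.05. The step was tested on simulated data.

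Each gene is shown by the tested probe set whose mean was highest, with symbols from the platform annotation. A fold from a group wholly under 4 is a bound against 4. Every member past the threshold was named; those changed at least 2-fold and FN1, ITGAV, ITGB1, ITGA5, PTK2, PXN, VCL and TLN1 were given on every array, and up to 4 of each further list. Members and lists were chosen with earlier results of these data known. Promoters came from RefSeq's table, which lists 33 of the 45 members. The number of arrays limits the precision. The alternatives were other filters, scalings, weights, the replicate block, probe set choices and each array left out; gene-by-gene weights were added after seeing the data.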

Additional observations from a re-analysis of the deposited data

How the results depend on the processing

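No member changed its direction past the threshold under any of the 17 alternatives. Of the 29 measured members, 19 also kept their side of the threshold wherever they were measured, among them 4 of the 9 that were higher and 8 of the 9 that were lower. With no filter on low values, 5 members were higher and 8 lower. Of all 23785 probe sets tested in the main fit, 2698 were higher and 3329 lower. With the suffix _at alone, 1494 and 1867 of the 13579 then tested were called. With array weights by REML, which did not converge, it was 5195 and 6642, and with gene-by-gene weights 4264 and 5123. With no filter, 1846 of the 54613 probe sets then tested were higher and 1767 lower. Leaving out 1 array gave 1796 to 3581 higher and 1801 to 3752 lower, past a 1.5-fold move for higher calls without GFP control replicate 2 and for lower calls without GATA3 replicate 2 or any 1 GFP control array. The cause of these moves was not tested.

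With the replicate number as a block, 5 members were higher and 10 lower. Of all 23785 probe sets tested, 2022 were then higher and 2106 lower. VASP was then among the lower members (adjusted p 0.0329). The higher calls of ITGA6 (adjusted p 0.0728), ITGB4 (0.0841), ITGB8 (0.0516) and TLN2 (0.0632) were lost. The labels do not say that the numbers mark a shared culture or day. The deviations of same-numbered arrays from their group means correlated at -0.135, 0.159 and -0.109. Pairs with different numbers lay between -0.253 and 0.228. With 3 arrays per group, these values cannot decide whether a culture or day was shared. No scaling moved the median change of all genes by over 0.1.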
